A study of Homo sapiens with 3 samples.

Results

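Caveolae are small flask-shaped pits of the plasma membrane, built from caveolins, which are embedded in the inner leaflet, and cavins, which form a coat around them. The 8 genes described here are the caveolins CAV1, CAV2 and CAV3, the cavins CAVIN1, CAVIN2 and CAVIN3, and EHD2 and PACSIN2, whose proteins sit at the neck of the pit. They were chosen by name. Every non-control probe whose transcript accession belongs to one of them was taken, which gave 12 probes of 58191 with a value on all 3 arrays and 8 of 22435 named genes. Single probes represent CAV3, CAVIN2, CAVIN3 and EHD2, and the other 4 genes have 2 probes each.

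The arrays measured RNA from A549, an established human lung adenocarcinoma line, after 48 h with 0.1% DMSO (control), 60 μg/mL cordycepin or 100 μg/mL cordyceps. The labels give DMSO for the control alone and do not say whether the treated cells received it. A difference in DMSO can therefore not be told apart from the agents. Cordycepin is an adenosine analog made by Cordyceps fungi, and the labels do not say what preparation the cordyceps was. All 3 conditions, per the labels, shared DMEM that held zinc sulfate at 16.7 μM, troglitazone at 10 μM, nicotinamide at 10 mM, serum at 10% and penicillin-streptomycin at 1%, of which the study's methods name the serum and the antibiotics alone. The amount of RNA labelled was 0.5 μg. There was 1 array per condition, so each difference given here compares 2 arrays, and neither a p-value nor an error between cultures can be had. Fewer cells of a kind and less RNA per cell cannot be told apart.

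CAV1 is the main scaffold of caveolae outside striated muscle, and CAV2 assembles with it. CAV3 takes the place of CAV1 in skeletal and heart muscle. CAVIN1 is needed for caveolae to form at all, while CAVIN2 and CAVIN3 join the coat through it, and CAVIN2 is known for shaping the membrane. EHD2, a membrane-bound ATPase, holds caveolae at the cell surface, and PACSIN2, an F-BAR protein, bends membranes. Caveolae are abundant in adipocytes, endothelium, muscle and type 1 alveolar cells. The study examined CAV1 as the upstream part of a chain to the kinase JNK and the transcription factor FOXO3. It reported CAV1 protein as raised by cordycepin and CAV1 RNA as slightly raised by RT-PCR, and described its microarray result as the same. The study concluded that cordycepin raises JNK phosphorylation through inhibition of DUSP5 by CAV1, and it reported Bax protein as raised. DUSP5, JNK, FOXO3 and Bax were followed there as proteins, whereas the arrays read RNA alone.

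The promoters of CAVIN2, the gene that differed most between the arrays, and of CAV1, the gene of the study's chain, are shown as the 250 bases before the gene start in RefSeq (GRCh38.p14). Capitals mark every match to the 6 motifs searched on both strands, which were TATAAA for the TATA box, GGGCGG for the GC box, CCAAT for the CCAAT box, TGACTCA for AP-1, TGTTTAC for FOXO factors and CATTCC for TEAD factors. The CAVIN2 window is chr2:191847089-191847338 on the minus strand, and the CAV1 window is chr7:116524759-116525008 on the plus strand, the first of 3 starts of that gene.
CAVIN2: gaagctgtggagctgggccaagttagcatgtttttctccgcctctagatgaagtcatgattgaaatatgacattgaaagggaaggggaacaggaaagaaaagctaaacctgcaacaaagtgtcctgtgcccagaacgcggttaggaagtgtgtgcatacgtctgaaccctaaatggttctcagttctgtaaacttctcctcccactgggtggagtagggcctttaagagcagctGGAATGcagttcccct
CAV1: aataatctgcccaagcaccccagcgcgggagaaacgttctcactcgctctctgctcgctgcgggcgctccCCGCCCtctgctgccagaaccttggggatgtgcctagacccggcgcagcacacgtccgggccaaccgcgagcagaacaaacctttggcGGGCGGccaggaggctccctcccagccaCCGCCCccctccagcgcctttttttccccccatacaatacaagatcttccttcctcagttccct

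The windows differ in composition. CAVIN2 has 48% G and C and a single match, to the TEAD letters read on the reverse strand, which begins 16 bases before the start. CAV1 has 63.6% G and C and 3 GC boxes, against a median of 58% over 35116 windows of the same length. The TEAD letters occur in 11.9% of those windows and the GC box in 42.6%. Of the other members with a window, CAV2 has 6 GC boxes before its first listed start, EHD2 has 1 GC box and CAV3 has 1 CCAAT match. PACSIN2, with 6 listed starts, has the TEAD letters in 4 of its windows, at 49, 67, 92 and 213 bases before the start, the first 3 of which are the same site in overlapping windows. Another of its windows has 2 GC boxes and 3 CCAAT matches. No member window holds the AP-1 letters, found in 4.20% of all windows, or the FOXO letters, found in 2.98%. TATAAA, found in 10.7%, was in none of them either, while CCAAT occurs in 32.0%. These are matches of letters alone.

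All 12 probes were well above background on all 3 arrays, and none was saturated. The arrays detected 24505 to 28494 probes, fewest with cordyceps. One corner of the arrays carried background outliers on 11.2% of its spots with cordyceps and on 0% in the other conditions, and log2 ratios of cordyceps over control were wider there, with an SD of 0.80 against 0.49 elsewhere. CAV1 probe A_24_P12626 and CAV2 probe A_23_P123071 lie in that corner. PACSIN2 probe A_33_P3314192, outside it, has an outlier flag on its background with cordyceps. Values below are processed signals in arbitrary units. Ratios are differences of log2 signal after each array's 75th percentile was subtracted, and the error given is the scanner's own. That error is an estimate by the scanner software, 0.14 on the log2 scale per array for every bright member probe, not a measured spread. Between repeat spots of a probe the median SD was 0.05 to 0.06. Signals of different probes cannot be ranked against each other.

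**Figure D1:**
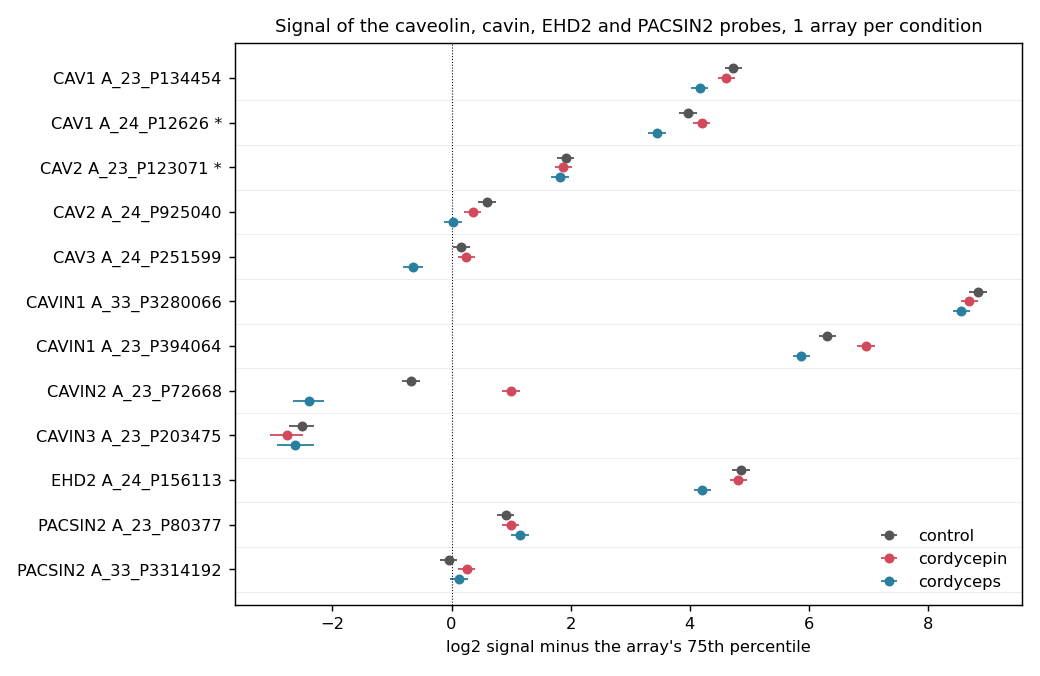
Normalized signal of the 12 probes on the 3 arrays. The x axis gives log2 signal minus the 75th percentile of the array, the bars are the scanner's error, 1 point is 1 array, and asterisks mark probes in the disturbed corner. The points of CAVIN2 are spread farthest, at -0.68, 1.00 and -2.40, and the 2 treated arrays lie on opposite sides of the control.

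CAVIN2 differed most of the 8 genes in every comparison. Its signal was 162 in the control, 448 with cordycepin and 49.4 with cordyceps. The log2 ratio of cordycepin over control was 1.68 ± 0.21 (scanner error), or 3.21-fold higher, and that of cordyceps over control was -1.71 ± 0.30, or 3.28-fold lower. Between the treated arrays, which differ in agent and in dose, the signal was 10.5-fold lower with cordyceps, with a log2 ratio of -3.40. With cordycepin the probe stood clear of background, at 13.7 times its local background. With cordyceps it was dim, at 2.76 times its local background and 0.52 on the log2 scale above the dimmest signal that array detected. With normexp, another background correction, the cordyceps ratio was -0.98, or 1.97-fold lower, short of 2-fold, while the cordycepin ratio was 1.46. Over 10 settings the ratio ran from 1.42 to 1.78 with cordycepin and from -1.71 to -0.98 with cordyceps. For cordyceps over cordycepin it ran from -3.40 to -2.43, the latter with normexp, or 5.40-fold lower.

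A 2-fold difference was the call used for all genes. With cordycepin, 5.95% of 15917 named genes were 2-fold or more higher and 3.57% lower, and of the 8 members 1 was higher (CAVIN2) and 0 lower. With cordyceps, 4.19% of 15602 genes were higher and 3.15% lower, and of the members 0 were higher and 1 lower (CAVIN2). For cordyceps over cordycepin the shares were 5.57% higher and 7.75% lower of 15482 genes, and again 0 members were higher and 1 lower. A count of 1 in 8 is thus the same gene each time, and the other 7 genes stayed under 2-fold by their brightest probe. Among the genes measured on both arrays, 1.56% changed as much as CAVIN2 with cordycepin, 1.20% with cordyceps and 0.167% between the treated arrays. The combination of 2-fold higher with cordycepin and 2-fold lower with cordyceps was seen in 34 genes, 0.221% of 15394. These 2 comparisons share the control array.

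**Figure D2:**
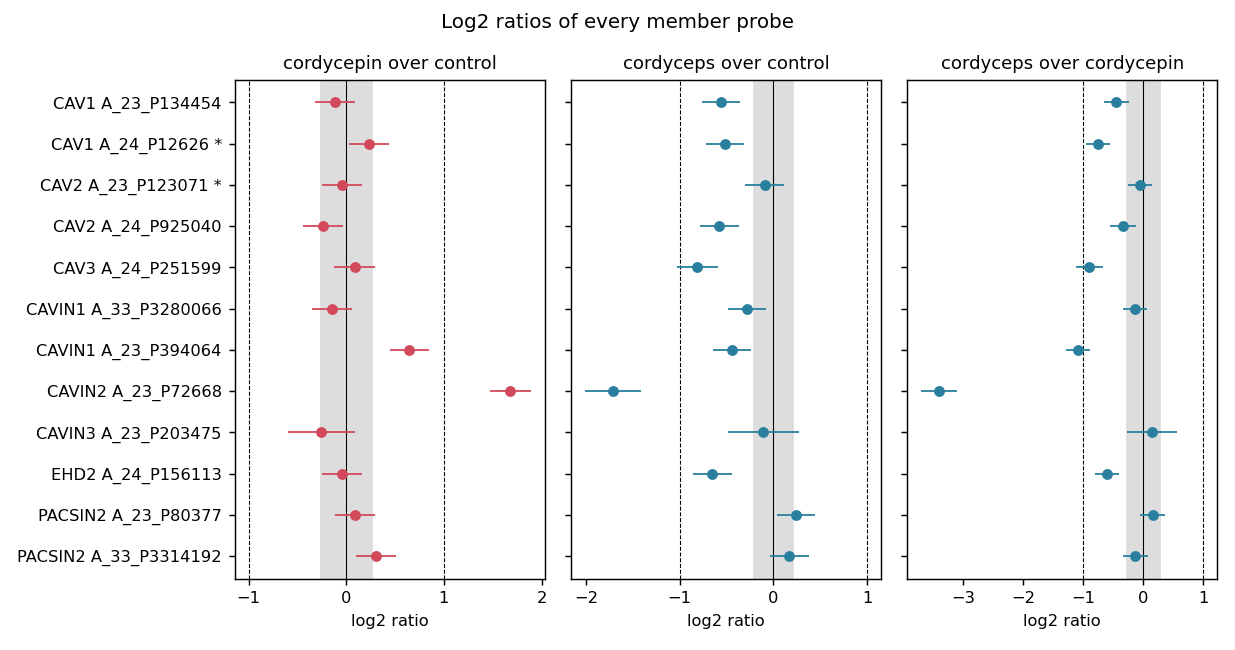
Log2 ratios of the 12 probes in the 3 comparisons. Bars are the scanner's error, the grey band is the SD of a single probe (0.26, 0.20 and 0.28 from left to right), dashed lines mark 2-fold, and asterisks mark probes in the disturbed corner. With cordycepin 9 of 12 probes lie within the band, and with cordyceps 3 of 12 do, with 10 of 12 below 0. The 12 probes stand for 8 genes. Of all genes measured with cordycepin, 55.1% changed as much as CAVIN3 (-0.26), near the edge of the band. With cordyceps 55.4% changed as much as PACSIN2 (0.24), just past the edge. The median of all genes with cordyceps was -0.11, so most genes were below 0 there.

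How far a ratio can be read was taken from genes with 2 detected probes, whose ratios should match. The SD was estimated from the median absolute gap between the 2 probes, so it does not reflect the widest gaps. With cordycepin the median gap was 0.25, and 11.4% of genes had a gap of 0.80 or more. A ratio past this SD is therefore not rare for technical reasons alone. The SD of a single probe was 0.26 for cordycepin over control (3675 genes), 0.20 for cordyceps over control (3418 genes) and 0.28 for cordyceps over cordycepin (3364 genes). It covers differences between probes on the same arrays alone. A shift of a whole array, such as one from the scaling, cancels between 2 probes and is not covered. Differences between cultures are not covered either. The SD was larger for dim probes. With the genes split by signal into 3 equal parts, it was 0.38 with cordycepin in the dimmest part and 0.18 in the brightest.

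CAV1 was bright by both probes. Probe A_23_P134454 read 6882 in the control, 5483 with cordycepin and 4661 with cordyceps. Probe A_24_P12626, in the disturbed corner, read 4071, 4122 and 2840 in the same order. With cordycepin the probes gave log2 ratios of -0.11 and 0.23, both within the SD of a single probe and on opposite sides of 0. The rise in CAV1 RNA that the study described for its microarray was thus not resolved by these 2 probes. With cordyceps the probes gave -0.56 and -0.52, a gap of 0.04 that 86.3% of genes with 2 probes matched or passed. Both CAV1 probes were thus lower with cordyceps than in the control by more than the SD of a single probe, and stayed below 0 under every setting run, from -0.58 to -0.25. A change at least as large was seen in 21.1% of all genes, so the CAV1 value is not rare on this array.

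CAV2 differed less. Its brightest probe, A_23_P123071, read 981, 822 and 919 in the control, with cordycepin and with cordyceps, and lies in the corner. The second probe, A_24_P925040, outside the corner, read 393, 287 and 264. Their log2 ratios were -0.04 and -0.24 with cordycepin. With cordyceps they were -0.10 and -0.58, so the probe outside the corner was below the control by about as much as CAV1 and the probe inside it was not. A gap between probes of at least that size, 0.48, occurred in 19.4% of genes with 2 probes. After the median ratio of the surrounding spots was subtracted, the CAV2 ratios with cordyceps were -0.09 in the corner and -0.43 outside it. The CAV1 probe in the same corner gave -0.52 before that subtraction and -0.35 after it. The part of the corner in the CAV2 gap was not tested. CAV1 and CAV2 are neighbours on chromosome 7.

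CAV3, the muscle caveolin, was measured at 292 in the control, 267 with cordycepin and 166 with cordyceps. Its log2 ratio was 0.09 ± 0.21 with cordycepin and -0.81 ± 0.22 with cordyceps, the second largest difference among the members there. The cordyceps ratio stayed below 0 under every setting, from -0.81 to -0.54, and 9.79% of genes changed as much. Of 5 markers of striated muscle, 2 were detected in the control, 3 with cordycepin and 1 with cordyceps. The summed signal of all 5, undetected probes included, was 754, 738 and 657. CKM and MYH7 were not detected on any array, MYOG was detected in the control (39.7) and with cordycepin (33.1), MYOD1 was detected with cordycepin alone, and DES made up most of the sum, at 692, 666 and 602. The part of any muscle-like expression in the CAV3 value was not tested.

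The 2 probes of CAVIN1 disagreed with cordycepin. Probe A_33_P3280066 read 118886 in the control, 92523 with cordycepin and 97720 with cordyceps, without saturation. Probe A_23_P394064 read 20624, 27851 and 15200. With cordycepin the first gave a log2 ratio of -0.15 and the second 0.65, a gap of 0.80 that 11.4% of genes with 2 probes matched or passed. With cordyceps both were lower than the control, by -0.28 and -0.44. For cordyceps over cordycepin the first gave -0.14 and the second -1.09, which passes 2-fold. Whether CAVIN1 differed between the treated arrays depends on the probe, and the files do not say which transcript part each reads.

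CAVIN3, whose protein binds protein kinase C delta, was dim on all 3 arrays. Its signal was 45.6 in the control, 32.9 with cordycepin and 42.3 with cordyceps, between 2.19 and 2.71 times its local background. The log2 ratios were -0.26 ± 0.34 with cordycepin and -0.11 ± 0.38 with cordyceps. Both lie within the scanner's own error, so no difference could be resolved at this signal.

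EHD2 and PACSIN2 differed in direction with cordyceps. EHD2 read 7552 in the control, 6298 with cordycepin and 4810 with cordyceps, with log2 ratios of -0.05 and -0.65. The cordyceps ratio ranged from -0.65 to -0.38 over the settings, always below 0, and 16.1% of genes changed as much. PACSIN2 probe A_23_P80377 read 487, 445 and 577, and probe A_33_P3314192 read 251, 267 and 283. Their ratios with cordyceps were 0.24 and 0.17, above 0 under every setting. With cordycepin they were 0.08 and 0.30, the second just past the SD of a single probe. PACSIN2 was the only member above the control with cordyceps by its brightest probe.

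**Figure D3:**
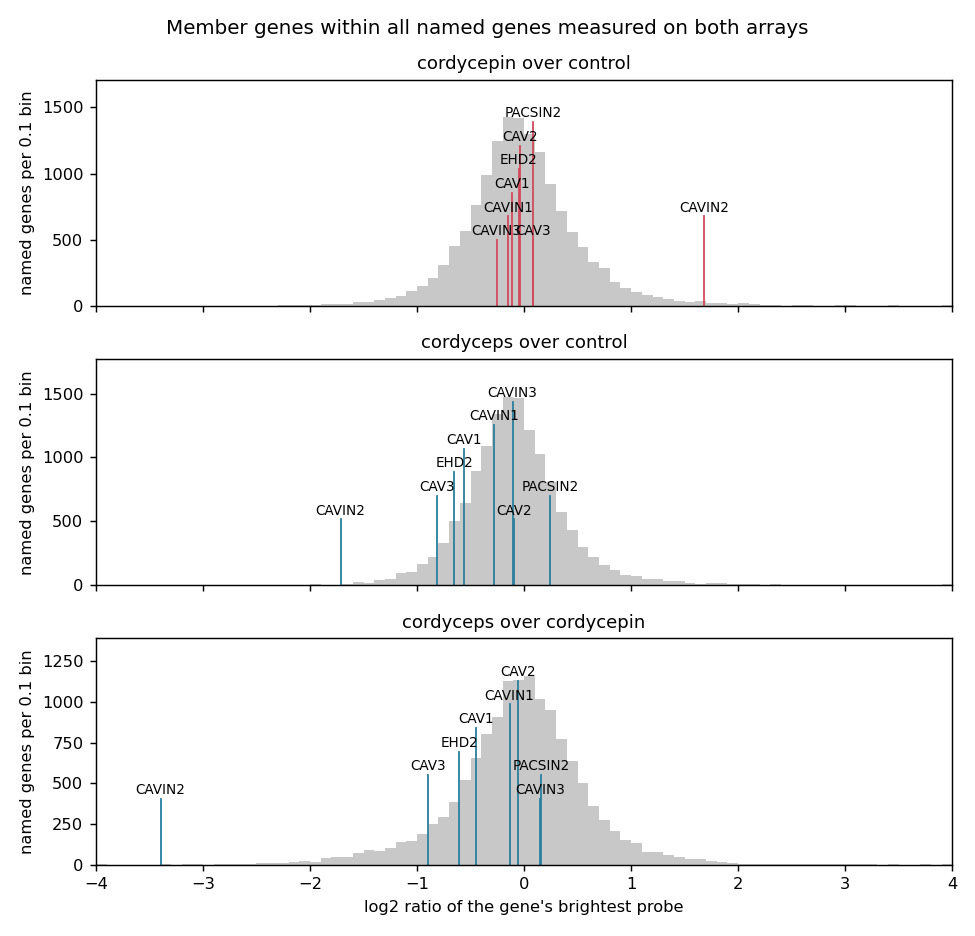
The members within all named genes measured on both arrays. The x axis is the log2 ratio of each gene's brightest probe, the y axis counts genes per bin of 0.1, and coloured lines mark the 8 members, at heights chosen for legibility, with ratios beyond the axis counted in its end bins. CAVIN2 lies far to the right with cordycepin (1.68) and far to the left with cordyceps (-1.71), while CAV3, EHD2 and CAV1 lie below the lower quartile of all genes with cordyceps (-0.37).

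Taking the 8 genes by their brightest probes, the median log2 ratio with cordycepin was -0.04, and over all 14600 genes measured it was -0.05. With cordyceps the member median was -0.42 and that of all 13889 genes was -0.11. Here 7 of 8 members were below 0, as were most genes, and 6 of 8 were below the median of all genes. Without CAVIN2 the member median was -0.28. For cordyceps over cordycepin the medians were -0.29 for the members and -0.02 for 13802 genes. The sign of the last depends on the scaling. When each array was centred on its median, all ratios of cordyceps over cordycepin shifted by 0.53 and the member median became 0.24, while those of cordycepin over control shifted by -0.26 and those of cordyceps over control by 0.27, with member medians of -0.31 and -0.15. The distance between the members and all genes is the same under either centring, -0.32 with cordyceps and 0.01 with cordycepin.

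**Figure D4:**
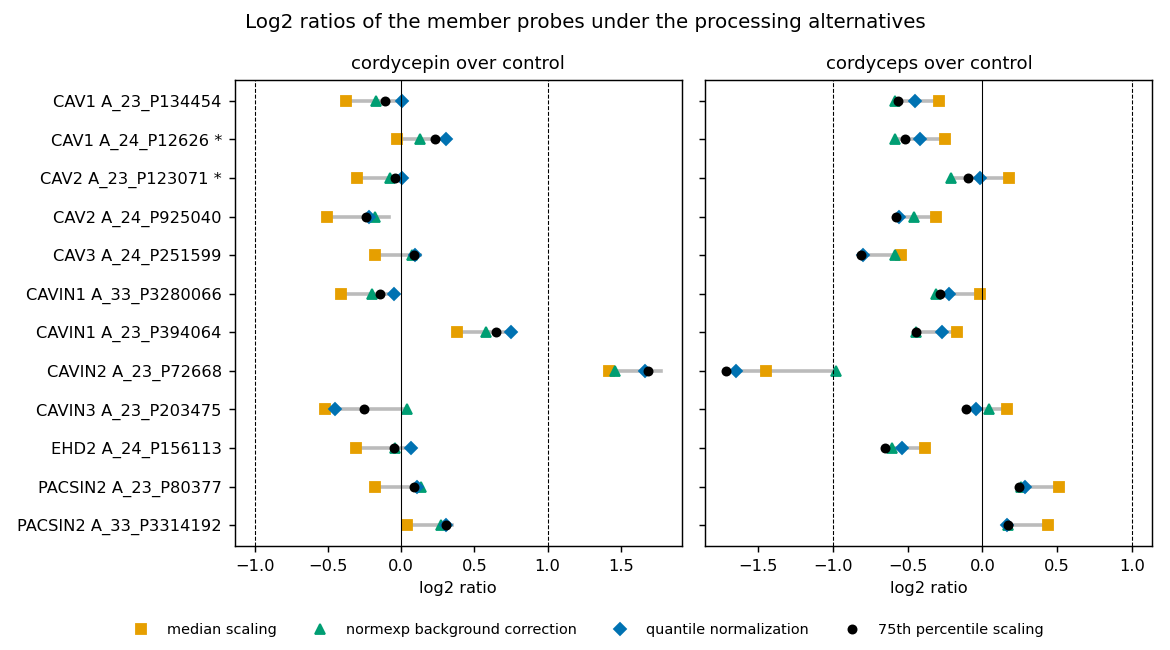
Log2 ratios of the 12 probes under the processing settings. Grey lines span all settings, black circles are the scaling used for the values in the text, other symbols are 3 of the alternatives, dashed lines mark 2-fold, and asterisks mark the corner. CAVIN2 stays above 1.42 with cordycepin, and its cordyceps ratio moves to -0.98 with normexp, while both CAV1 probes stay below 0 with cordyceps.

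The patterns of the bright members were shared by many genes. By distance over the 2 ratios to the control, the genes closest to CAV1 among 2135 of like signal were DDB1, SRGAP2 and OSBPL7, at 0.0063, 0.021 and 0.036. Of those 2135, 215 (10.1%) lay within the SD of a single probe of CAV1. The closest to CAVIN1 among 196 of like signal were H4C3, DNM1 and ATP5PD, and 64 (32.7%) lay within that SD. These likenesses rest on 3 arrays and do not single out any gene.

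Among 43 other genes of the pathway, in 6 lists, 4 of 40 detected passed 2-fold with cordycepin (10%), 3 of 41 with cordyceps (7.32%) and 5 of 41 between the treated arrays (12.2%). Over all named genes the shares, both directions together, were 9.52%, 7.35% and 13.3%, so the pathway genes passed about as often as any. The first list holds 8 accessory proteins of caveolae. EHD4, a relative of EHD2, read 612, 1142 and 802 in the control, with cordycepin and with cordyceps, a log2 ratio of 1.11 with cordycepin. PACSIN1, the neuronal relative of PACSIN2, read 532, 132 and 237, and was lower with both agents, at -1.80 and -1.17. The other 6 accessory genes, among them the muscle cavin CAVIN4, stayed under 2-fold in each comparison, and the list medians were 0.04 with cordycepin and -0.08 with cordyceps. The other relatives of EHD2 and PACSIN2 gave 0.62 (EHD1), 0.47 (EHD3) and 0.14 (PACSIN3) with cordycepin.

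None of 4 genes for caveolin phosphorylation and turnover passed 2-fold. ABL1, a tyrosine kinase, had the widest ratio there, -0.51 with cordyceps, and VCP, an ATPase that extracts ubiquitinated proteins, gave -0.38 with cordycepin. Of 4 scaffolds of flat membrane rafts, STOM (stomatin) read 6839, 10696 and 5176 and was lower with cordyceps than with cordycepin, at -1.26. Its single probe lies in the disturbed corner, so the call is lost when the corner is left out. MAL was well above background with cordyceps alone, at a dim signal of 57.4. On the log2 scale it was 1.62 above the dimmest signal detected in the control. FLOT1 and FLOT2, the flotillins, stayed under 2-fold.

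The clathrin coat, the other main route of endocytosis, served as a comparison. None of its 11 detected genes of 12 passed 2-fold in any comparison, where the shares over all genes were 9.52%, 7.35% and 13.3%, and CLTC was not detected on any array. Counts this small do not set the clathrin genes apart from the caveola genes. DNM2, the dynamin that cuts both kinds of pit from the membrane, read 2493, 1171 and 1380, with log2 ratios of -0.88 and -0.85. CLTB, a clathrin light chain, gave -0.81 for cordyceps over cordycepin. The list medians were -0.13 with cordycepin and -0.23 with cordyceps, beside -0.04 and -0.42 for the caveola genes.

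Of 11 receptors and channels reported to reside in caveolae, 10 were detected and CD36 was not. EGFR, the epidermal growth factor receptor, read 1096, 2146 and 1059, a log2 ratio of 1.18 with cordycepin and -1.23 for cordyceps over cordycepin. Its other 2 probes gave 0.63 and 0.78 with cordycepin, the same direction and under 2-fold. PTCH1, a hedgehog receptor, was not well above background with cordyceps. With its signal there set to the dimmest that array detected, its log2 ratio was -1.03 against the control and -1.35 against cordycepin. Its detected probe lies in the disturbed corner, and this call is lost without the corner too. In the chain the study drew from CAV1, DUSP5, a phosphatase of MAP kinases, read 3372, 6922 and 3397, a log2 ratio of 1.25 with cordycepin and 0.01 with cordyceps. DUSP5 RNA was thus higher with cordycepin by its single probe, whereas the study's chain has DUSP5 inhibited. How the RNA relates to the protein was not tested. MAPK8, which encodes JNK1, FOXO3 and BAX stayed under 2-fold in each comparison.

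**Figure D5:**
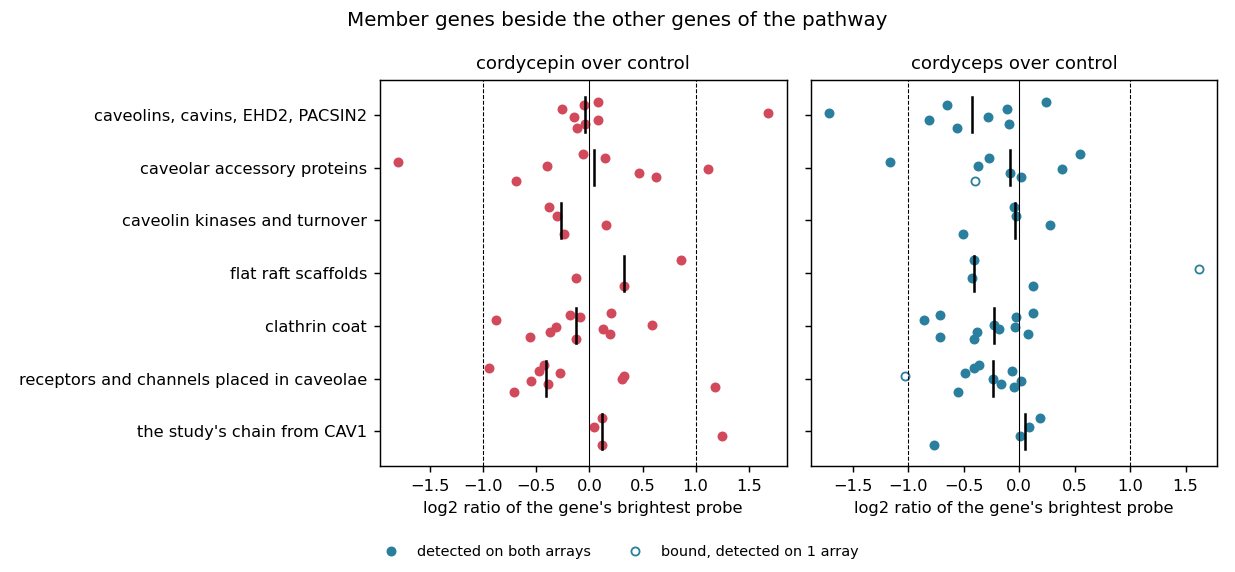
The 8 members beside the 6 lists of other pathway genes. Each point is the log2 ratio of a gene's brightest probe, filled where both arrays detected it and open where 1 did, the black bar is the median of the filled points, and dashed lines mark 2-fold. The clathrin coat has no point beyond 2-fold, and the caveola genes have 1 in each panel, CAVIN2.

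Markers were read to see which cells the RNA came from. All 5 epithelial markers were detected on every array. With cordycepin, EPCAM, an epithelial adhesion molecule, gave a log2 ratio of -1.51 and KRT7 -0.47, while KRT8, KRT18 and CDH1 gave 0.62, 0.35 and 0.07. KRT8, a keratin, passed 2-fold for cordyceps over cordycepin by its brightest probe, at -1.32, and its other 2 probes gave -0.09 and -0.60. Of 3 alveolar type 2 markers, SFTPB was not detected and NAPSA was dim on all 3 arrays, at 84.6, 107 and 64.4. SFTPC read 85.0 in the control and 55.7 with cordycepin and was not well above background with cordyceps, where its log2 ratio to the control was -1.29.

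Markers of other cell types were in part detected. Of 4 endothelial markers, 2 were detected in the control, 2 with cordycepin and 0 with cordyceps, with summed signals of 102, 110 and 101. These sums include undetected probes, which made up all of the cordyceps value. CDH5 read 61.3 and 57.5 and VWF 29.1 and 37.4 in the control and with cordycepin, and PECAM1 and TEK were not detected on any array. Of 3 adipocyte markers, PLIN1 was detected in the control alone (29.2) and LEP with cordycepin alone (38.0), and ADIPOQ was not detected. On the log2 scale LEP was 1.24 above the dimmest signal detected in the control. Of 4 fibroblast markers, COL1A1 was detected on all 3 arrays, at 337, 239 and 208, by a probe in the disturbed corner, and COL1A2, DCN and PDGFRB were not detected. Of 3 leukocyte markers, CD14 read 3387, 1559 and 2183, PTPRC read 99.5, 71.8 and 72.9, and CD3E was not detected. The part of any of these in the values of the caveola genes was not tested.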

How the data were processed

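RNA of each condition was hybridized to 1 Agilent one-color array, and all 3 lie on the same slide. The methods give the vehicle Cy3 and cordycepin Cy5, but the deposited files hold 1 Cy3 channel per condition, so ratios were taken between arrays. The authors deposited scanner intensity values, background-subtracted by Agilent Feature Extraction 11.5.1.1 and not scaled between arrays, and a value table whose intensity values lie within 1% of the scanner means for at least 99.9% of probes. The methods name GeneSpring for normalization, with no further setting.

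Control and outlier spots were left out, log2 signal minus the 75th percentile of the array was taken, and spots of a probe were averaged. A probe counted as detected where the scanner marked 50% or more of its spots as well above background. Differences of 2-fold or more were called, as a bound where 1 array detected the probe. For bounds, the lowest signal among detected probes replaced a dimmer one. Probes that were not detected can lie above that signal and then kept their own, so a bound is approximate. Each gene took the values of its probe with the highest mean over the 3 arrays. Accessions, versions removed, were named through the RefSeq gene table (GRCh38.p14), which matched 31104 of 58201. The array design uses another build, so no probe coordinates are given. Promoter windows were found for 6 members.

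Members, lists and comparisons were chosen with earlier results of these data known. All members are named, and of each pathway list the genes called in any comparison or, where none was, up to 2 with the widest ratios among those detected on all arrays. All markers are named, and some further list members were named after their values were seen. The precision is limited by the number of arrays. Alternatives were median scaling, no scaling, quantile normalization, the percentile over the probes that all arrays detected, normexp (offset 50, limma 3.58.1, R 4.3.3), outlier spots kept, the deposited table, the corner left out, 3 other detection rules, the median over probes, and thresholds of 1.5-fold and 3-fold. Subtracting the local median over 12 rows and columns to each side was added after seeing the data. Python 3.11.15, numpy 2.4.6 and pandas 2.3.3 were used, and calling was tested on simulated data.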

Additional observations from a re-analysis of the deposited data

How the results depend on the processing

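No result changed direction while being called at 2-fold, and CAVIN2 kept its call in each comparison under every alternative except normexp, which left 0 caveola genes called with cordyceps. Of the counts and medians, 107 values stayed close to those given and 19 moved. Median scaling gave member medians of -0.31 with cordycepin, -0.15 with cordyceps and 0.24 for cordyceps over cordycepin, and 1 pathway gene called with cordyceps. The median over a gene's probes gave -0.60 for cordyceps over cordycepin. Normexp left 0 pathway genes called with cordyceps and 3 for cordyceps over cordycepin. Leaving out the corner, and with it STOM and PTCH1, gave 3 in the last, and so did detection on both arrays, which gave 1 with cordyceps. At 1.5-fold, 3 caveola genes were called with cordyceps (CAVIN2, CAV3 and EHD2) and 3 for cordyceps over cordycepin. The pathway counts, in the order of the comparisons, were 11, 7 and 11 at 1.5-fold and 1, 1 and 0 at 3-fold. Shares of all genes were not computed at these thresholds, so the counts are not results about the members. Of all genes measured, 16.1% changed as much as EHD2 with cordyceps (-0.65). For cordyceps over cordycepin, where EHD2 gave -0.60, 26.0% did. Of the ratios of single probes, 278 stayed within the SD of a single probe of their value and 40 moved by more, 36 of them with median scaling. After subtraction of the local median, CAV3, EHD2 and CAV1 with cordyceps gave -0.61, -0.50 and, by the 2 CAV1 probes, -0.45 and -0.35, and CAVIN2 gave -1.59. No paired analysis was possible because each condition has 1 array. Some of these movements follow by construction. Median scaling shifts all ratios of a comparison alike, leaving out the corner removes its probes, and detection on both arrays drops bounds. Fewer genes pass a higher threshold in the same way. The cause of the other movements was not tested. Signal limits CAVIN3 on every array and CAVIN2 with cordyceps.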
